A study of Bos taurus with 28 samples.

Results

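CALCB (ENSBTAG00000001516) is 1 gene of the 27607 in the deposited anterior pituitary table, and 1 of the 14939 that passed the filter on low values. It was chosen by the difference in its level between the diets of this study, so that difference is given below as a description without a test. How far CALCB varied between calves of the same diet enters the study's own test of that difference, so its spread is not wholly apart from the choice. Which other genes rose or fell with it within a diet was not used to choose it.

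The calves were Angus × Holstein-Friesian heifers, reared to 21 weeks of age on a plane of nutrition that was either high (HI) or moderate (MOD). In a calf phase of 8 weeks, the daily milk replacer allowance was set at 1.5 kg (10 L) for HI and 0.5 kg (4 L) for MOD calves and was then stepped down to weaning, with concentrates ad libitum for HI and rising to at most 1 kg a day for MOD calves. The 11 weeks after weaning kept this contrast in concentrates, unlimited in HI and 1 kg in MOD, and hay was given on both diets. The labels give 13 HI and 15 MOD calves, each calf being 1 library and all calves being female and sampled at the same age. Stranded messenger RNA was sequenced, and the reads counted on genes ran from 12669266 to 18217216 per calf. PRL, the prolactin gene, and CSHL1, a gene of the growth hormone family, both markers of hormone cells of the gland, were at no less than 32023 and 60600 CPM in any calf (CPM is the read count on a common library size, per 1000000 reads adjusted by the TMM method). Calves HI 2535 and MOD 2551 stood apart on the first principal component of the diet-centred values, which held 16.5% of the variance, with scores of 49.3 and 48.1 where the next largest was 21.3 in size. The diet difference, spread, counts, main correlations and list medians of CALCB are also given without those 2 calves, while the look-up of genes from 1 diet in the other, the technical measures and the comparison with other predictor genes were not repeated without them.

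CALCB belongs to the calcitonin gene family. The family arose by duplication and encodes small secreted peptides, among them calcitonin, a hormone of calcium balance, and the calcitonin gene-related peptides, which sensory neurons release and which relax blood vessels. Gene-related peptides act through a receptor made of the CALCRL protein and its partner RAMP1, which raises cyclic AMP in the target cell. In ruminants and pigs the family also includes calcitonin receptor-stimulating peptides. In the RefSeq gene table for cattle (assembly ARS-UCD2.0, a later build than that of the deposited values), CALCB is not a current symbol but an older name of 2 protein-coding genes. LOC514876 also carries the older names CALCA and CT, and LOC407218 also carries CRSP1, for calcitonin receptor-stimulating peptide 1. Both lie in 1 cluster with CALCA, between INSC and CYP2R1. That table holds no Ensembl identifiers, so which of these genes ENSBTAG00000001516 counts was not determined, and reads shared between related copies were not tested. The other 10 genes of the family and its receptors that were looked for (CALCA, CALCRL, RAMP1, RAMP2, RAMP3, CALCR, ADM, ADM2, IAPP and CRCP) are paired with no identifier in the sources used here and were not analysed.

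CALCB was detected in every calf. All 28 calves had at least 1 read, 24 had at least 10, and the 4 calves with fewer were all HI calves. In HI calves the level was lowest at 0.201 CPM in calf 1388 (3 reads, 95% Poisson interval 0.0414 to 0.587 CPM), had a median of 0.781 CPM, and was highest at 3.12 CPM in calf 2570 (43 reads). In MOD calves the level was lowest at 1.30 CPM in calf 2346 (19 reads, 0.785 to 2.04 CPM), had a median of 5.54 CPM, and was highest at 22.5 CPM in calf 1690 (355 reads). The groups overlapped at their edges. Of the HI calves, 8 were below the lowest MOD calf and all 13 were below the MOD median, and of the MOD calves 12 were above the highest HI calf. These intervals cover counting error only.

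**Figure D1:**
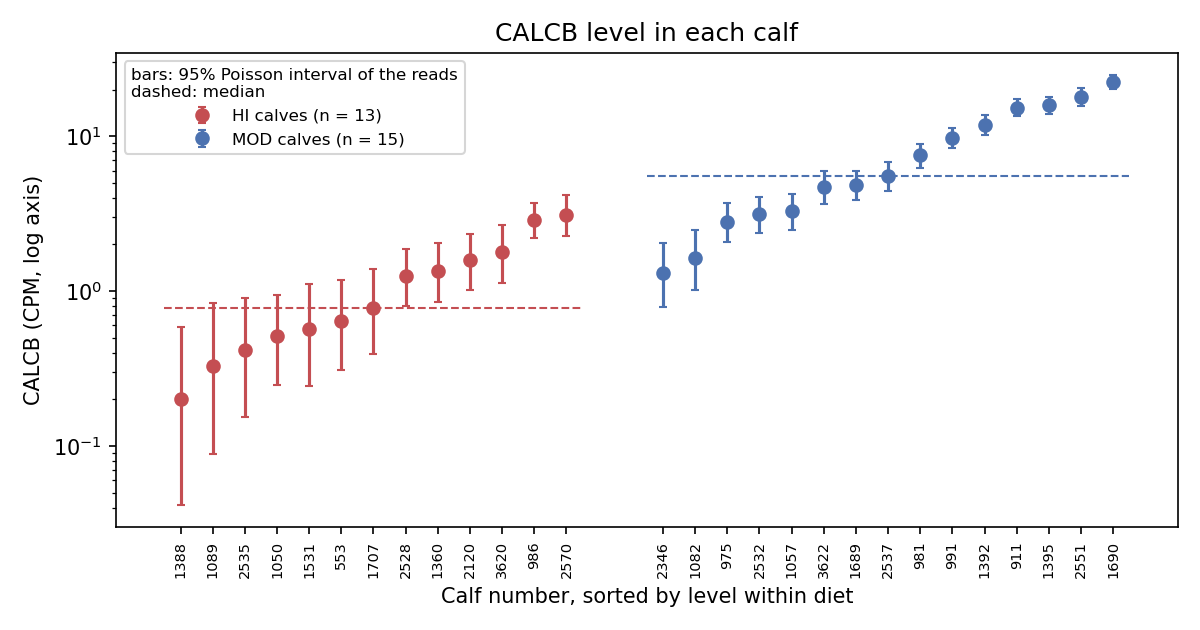
CALCB level (CPM, log axis) in each of 13 HI and 15 MOD calves, sorted within diet, with 95% Poisson intervals of the reads as bars and the group medians (0.781 and 5.54 CPM) dashed. The 5 highest HI calves lie within the range of the MOD calves, and 5 MOD calves lie above 10 CPM.

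HI calves had a mean CALCB level of 1.19 ± 0.947 CPM (SD, n = 13), and MOD calves one of 8.52 ± 6.67 CPM (SD, n = 15). The ratio of MOD to HI was 7.18 between means and 7.09 between medians. On the log2(CPM + 0.5) scale the difference of HI from MOD was -2.21 (standard error 0.35), and 4.62-fold on that scale, which understates the change of a gene at low values. It was the lowest of the differences of the 14939 genes tested. Between diets limma called 0.837% of tested genes in either direction and 0.428% as lower in HI (adjusted p-value below 0.05 with a fold above 1.5). Nothing is read from the place of CALCB among them, because that contrast chose the gene. Without calves HI 2535 and MOD 2551 the difference was -2.05. Fewer cells of a type that express CALCB and less CALCB RNA per cell cannot be told apart in RNA of whole tissue.

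Calves of the same diet differed widely. The highest HI calf had 15.5 times the CALCB level of the lowest, and the highest MOD calf had 17.3 times that of the lowest. The coefficient of variation was 79.9% in HI and 78.3% in MOD calves. Read counting alone would give 23.2% and 8.68%, and variation from library preparation was not measured. The intervals of the 7 HI calves below 1 CPM overlap each other, so these calves cannot be put in order by counting.

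The SD of CALCB between calves of a diet was 0.76 on the log2(CPM + 0.5) scale in HI and 1.16 in MOD calves, and 0.99 with both diets pooled. The median tested gene had a pooled SD of 0.245. CALCB varied more than 99.3% of the tested genes, and 100 genes varied more. Without calves HI 2535 and MOD 2551 the pooled SD was 0.98, larger than that of 99.3% of genes, with 0.76 in HI and 1.13 in MOD calves, and the coefficients of variation were 76.7% and 81.2%. By diet, its SD was larger than that of 99.6% of genes in MOD and 98.1% in HI calves. On the count scale, edgeR gave CALCB a coefficient of variation between calves of 71.7%, where the trend over genes at its level of expression was 28.8%. Among the other genes paired with a symbol, 5 had a larger within-diet SD: FOSB and EGR1, immediate early transcription factors, SERPINI2, a serpin, CASR, the calcium-sensing receptor, and SOST, an inhibitor of Wnt signalling.

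**Figure D2:**
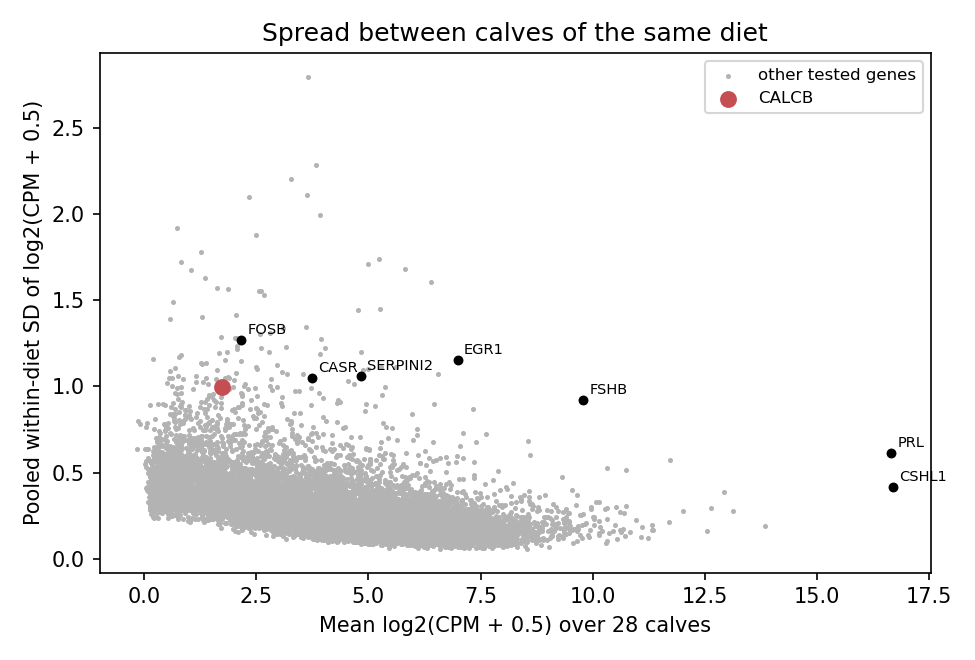
Within-diet SD of log2(CPM + 0.5), pooled over both diets, against the mean over 28 calves for every tested gene (grey), with CALCB in red and named genes in black. CALCB, at an SD of 0.99, lies well above the bulk of genes, whose median is 0.245.

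The wide range within each diet allowed a search for genes that follow CALCB from calf to calf. Each other tested gene was fitted with limma on log2(CPM + 0.5) with diet and the diet-centred CALCB level as terms, so that the difference between diets could not enter. No gene was called. Of the 14938 genes, 0 (0%) had an adjusted p-value below 0.05 and the smallest adjusted p-value was 0.998. At an unadjusted p-value below 0.05 there were 537 genes (3.59%), 257 with a positive and 280 with a negative slope on CALCB. The quasi-likelihood F-test of edgeR and the Wald test of DESeq2 also called 0 genes at an adjusted p-value below 0.05, with 523 and 565 at an unadjusted p-value below 0.05. Without the 2 calves that stood apart, limma called 0 genes, with 501 at an unadjusted p-value below 0.05. Correlations with CALCB over the tested genes had a median of 2.8e-05, and 5% of genes lay below -0.31 and 5% above 0.30.

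Each diet alone gave no call either. In the 15 MOD calves limma called 0 genes (0%, smallest adjusted p-value 0.837), with 761 (5.09%) at an unadjusted p-value below 0.05. In the 13 HI calves limma called 0 genes (0%, smallest adjusted p-value 0.999), with 314 (2.1%) at an unadjusted p-value below 0.05. A test of whether the slope on CALCB differed between diets also called 0 genes (0%, smallest adjusted p-value 0.896), with 588 (3.94%) at an unadjusted p-value below 0.05. Single calves moved some of these unadjusted counts. The HI count was 1309 without HI calf 2570, the MOD count was 1188 without MOD calf 1082, and the count for the difference was 2086 without HI calf 2570 and 311 without HI calf 986. No fit with a calf left out called a gene. Without both calves that stood apart, limma called 0 genes in MOD, in HI and for the difference, with 525, 406 and 436 at an unadjusted p-value below 0.05. A p-value that misses the threshold does not show that a gene and CALCB are unrelated, and a gene with the median precision had a standard error of 0.0479 on the slope, in log2 units of the gene per log2 unit of CALCB.

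The calves of the other diet served as a second set. Of the 761 genes at an unadjusted p-value below 0.05 in MOD calves, 294 (38.6%) had the same sign of slope in HI calves, and 44.7% of all tested genes did. Only 5 of the 761 (0.657%) had the same sign and an unadjusted p-value below 0.05 in HI calves, beside 0.931% of all tested genes. Of the 314 such genes in HI calves, 139 (44.3%) had the same sign in MOD calves, close to the 44.7% of all tested genes, and 5 (1.59%) also had an unadjusted p-value below 0.05 there, beside 1.97% of all tested genes.

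**Figure D3:**
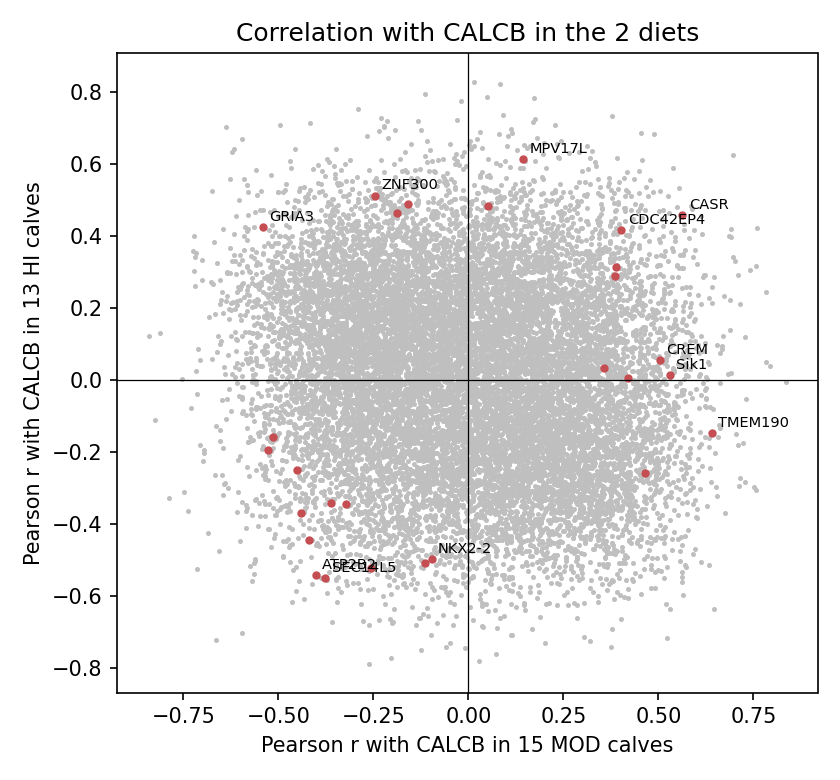
Pearson correlation with CALCB in 15 MOD calves (horizontal axis) and in 13 HI calves (vertical axis) for every tested gene (grey), with the genes named by rule in red. Of the genes, 44.7% lie in the quadrants where both diets have the same sign.

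Among genes with a symbol, CASR had the highest within-diet correlation with CALCB. CASR, the receptor by which cells sense extracellular calcium, ran from 6.21 CPM (median 16.5, highest 86.4) in HI calves and from 3.03 CPM (median 7.23, highest 30.9) in MOD calves. Its r with CALCB was 0.48 over both diets (limma slope 0.51, 95% interval 0.15 to 0.87, unadjusted p = 0.0069, adjusted p = 0.998), 0.56 in MOD and 0.46 in HI calves. The slope stayed between 0.44 and 0.58 with each calf left out in turn, and r was 0.51 without the 2 calves that stood apart. CASR and CALCB stood in opposite order between diets, since HI calves had a mean CASR level of 30.4 ± 28.0 CPM (SD, n = 13) and MOD calves one of 10.0 ± 7.49 CPM (SD, n = 15). Of all tested genes, 50 had a higher r than CASR.

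CREM, a transcription factor of the cyclic AMP response, came next with an r of 0.41. It ran from 12.9 CPM (median 21.2, highest 23.8) in HI calves and from 17.1 CPM (median 25.9, highest 66.7) in MOD calves. Its r was 0.505 in MOD and 0.06 in HI calves, and without the 2 calves that stood apart 0.44 and -0.03, with 0.34 over both diets. CREM did not keep its place without those calves, since ZGRF1 then had an r of 0.47 over both diets. The test of the difference between diets had an adjusted p-value of 0.896 in limma. CDC42EP4, an effector of the GTPase CDC42, had an r of 0.41, with 0.40 in MOD and 0.42 in HI calves. The other 7 of the 10 highest were ZGRF1, TMEM190, MPV17L, SLC13A1, ABCA10, MAFF and Sik1, with r between 0.28 and 0.37. Some of their slopes moved more than that of CASR with each calf left out in turn. The slope ran from 0.10 to 0.23 for ABCA10, from 0.085 to 0.16 for MPV17L and from 0.14 to 0.29 for MAFF.

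The lowest within-diet correlations among genes with a symbol were those of SEC14L5 at -0.43 and ATP2B2 at -0.41. ATP2B2 encodes a calcium pump of the plasma membrane. It ran from 87.6 CPM (median 161, highest 222) in HI calves and from 75.6 CPM (median 92.6, highest 118) in MOD calves, and its r was -0.40 in MOD and -0.54 in HI calves. Without the 2 calves that stood apart, r over both diets was -0.37 for ATP2B2 and -0.44 for SEC14L5. CACNA1E, the pore-forming part of an R-type calcium channel, GPR139, an amino acid receptor, and DIRAS2, a small GTPase, each had an r of -0.40. For CACNA1E, r was -0.53 in MOD and -0.19 in HI calves, with a Spearman rho of 0.093 in HI. Without the 2 calves that stood apart, r for CACNA1E was -0.33 over both diets and -0.0018 in HI calves. ADAMTSL3, RIMS1, TMEM205, KLHL1 and RLBP1 completed the 10 lowest, with r between -0.39 and -0.31. None of these 20 genes was called, and the adjusted p-value of each was 0.998 in limma. Symbols are paired with identifiers only for genes that the study itself selected for a difference between these diets, so the 20 are the extremes of 158 such genes and not of all genes.

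Among genes without a symbol, ENSBTAG00000007079 (r = 0.62) and ENSBTAG00000005426 (r = 0.60) were highest, and ENSBTAG00000012857 (r = -0.68) and ENSBTAG00000032140 (r = -0.63) were lowest. The range of ENSBTAG00000012857 was 18.4 to 27.5 CPM in HI and 12.2 to 27.6 CPM in MOD calves. It had an r of -0.72 in HI and -0.66 in MOD calves (limma unadjusted p = 0.000112, adjusted p = 0.998 over both), and -0.67 over both without the 2 calves that stood apart. HI calves had a mean of 23.1 ± 2.61 CPM (SD, n = 13) for it, and MOD calves 21.6 ± 3.83 CPM (SD, n = 15). These 4 are the extremes of the 14938 genes searched.

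The next values are again only among genes with a symbol, and over all tested genes r ran from -0.84 to 0.83 in MOD and from -0.79 to 0.83 in HI calves. Within MOD calves alone, TMEM190 had the highest r of genes with a symbol at 0.64, with -0.15 in HI calves, and CASR, Sik1, CREM and C2CD4B followed, down to 0.46. GRIA3, a glutamate receptor subunit, had the lowest of genes with a symbol at -0.54, with 0.42 in HI calves, followed by CACNA1E, ADAMTSL3, RIMS1 and GPR139. Within HI calves alone, MPV17L had the highest of genes with a symbol at 0.61, with 0.14 in MOD calves, and ZNF300, SLC9A4, C1QTNF6 and MTUS2 followed, down to 0.47. Of genes with a symbol, SEC14L5, ATP2B2, TMEM205, CPT1B and NKX2-2 were lowest in HI calves, from -0.55 to -0.50. The order rests in part on the 2 calves that stood apart. Without calf HI 2535, r in HI calves was 0.62 for SLC9A4, 0.58 for MPV17L, -0.64 for SEC14L5 and -0.63 for NKX2-2. Without calf MOD 2551, r in MOD calves was 0.59 for TMEM190 and -0.47 for GRIA3. The opposite signs of GRIA3 did not pass the test of the difference (limma unadjusted p = 0.0115, adjusted p = 0.896).

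Relations with 6 chosen genes were tested directly within each diet, by 2-sided permutation with 100000 resamples and adjustment over 12 relations. None had an adjusted p-value below 0.05. The largest was that with CREM in MOD calves, with a Pearson r of 0.505 (permutation p = 0.0557, adjusted p = 0.669) and a Spearman rho of 0.55 (permutation p = 0.0379, adjusted p = 0.455). Without the 2 calves farthest from the median CALCB level, this r was 0.42 (permutation p = 0.157). With PRL, the prolactin gene, r was -0.05 in MOD and -0.15 in HI calves. With CSHL1 it was 0.37 in MOD and -0.01 in HI calves. Without the 2 calves of each diet farthest from the median CALCB level, r with CSHL1 was 0.36 in MOD and -0.42 in HI (permutation p = 0.227 and 0.196). With FSHB, the beta subunit of follicle-stimulating hormone, r was -0.14 in MOD and -0.36 in HI calves. With DRD2, the dopamine receptor of prolactin cells, it was 0.12 in MOD and -0.21 in HI calves, and with EGR1 it was -0.13 and -0.15. Without the 2 calves that stood apart, none of the 12 had an adjusted permutation p-value below 0.05, and 4 changed sign. These were CSHL1 in HI calves at 0.14, FSHB in MOD at 0.090, DRD2 in MOD at -0.033 and CREM in HI at -0.031. Others kept their sign but moved, in MOD calves through calf 2551 alone, to -0.28 for PRL, 0.19 for CSHL1 and -0.26 for EGR1, and in HI calves through calf 2535 alone, to -0.10 for PRL, -0.12 for DRD2 and -0.09 for EGR1.

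**Figure D4:**
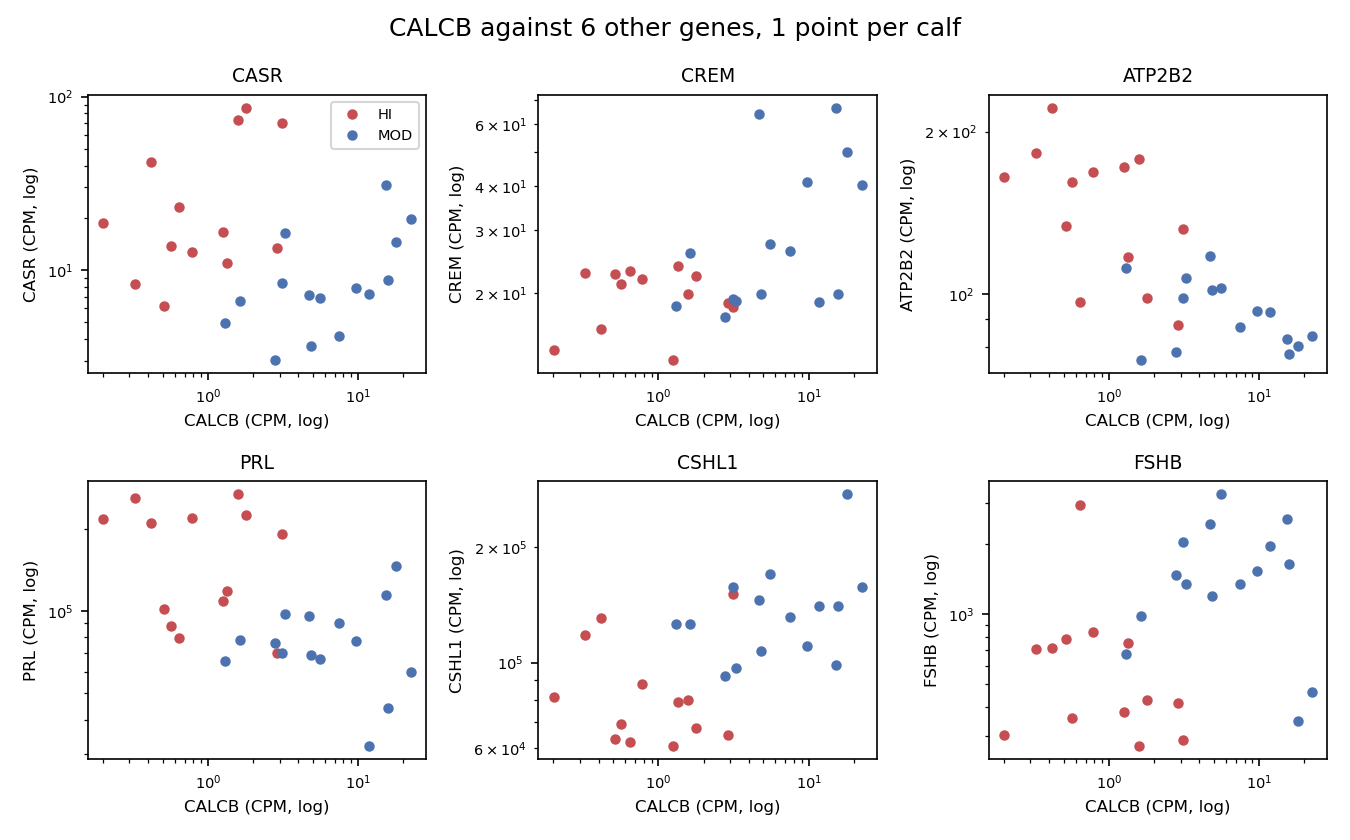
CALCB (horizontal axis, CPM, log) against CASR, CREM, ATP2B2, PRL, CSHL1 and FSHB (vertical axes, CPM, log), with 1 point per calf, HI in red and MOD in blue. Slopes across all points mix in the difference between diets, and within a colour r was 0.56 (MOD) and 0.46 (HI) for CASR and -0.05 (MOD) and -0.15 (HI) for PRL, which was -0.28 in MOD without calf 2551.

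The gene lists were looked at by role. Of 15 genes induced by cyclic AMP and depolarization, 0 were called and the median r was 0.05. A positive within-diet r with CALCB was found for 9 of them, beside 7470 of all 14938 tested genes. CREM was the only member of that list with an unadjusted p-value below 0.05, beside 3.59% of all tested genes. Between diets, 8 of these 15 genes were called, all lower in HI calves as CALCB was, beside 0.428% of all tested genes. ARC, an activity-induced synaptic gene, was among these 8, and its r with CALCB was 0.13 in MOD and -0.17 in HI calves. Of 11 receptors for peptides, amines and amino acids, 0 were called with CALCB and the median r was -0.04, CASR at an unadjusted p-value below 0.05 with a positive slope and GPR139 with a negative one. Between diets, 4 of these were called lower and 3 higher in HI calves, beside 0.837% of all tested genes in either direction.

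Of 12 neuronal and synaptic genes, 0 were called with CALCB and the median r was -0.14. A negative r was found for 9 of them, beside 7468 of all 14938 tested genes. DIRAS2 and RIMS1, a scaffold of vesicle release, had an unadjusted p-value below 0.05, beside 3.59% of all tested genes. Between diets, 7 of the 12 were called higher in HI and 1 lower, beside the same 0.837%. Of 10 genes of calcium handling, 0 were called with CALCB and the median r was -0.11. A negative r was found for 9 of them, beside the same 7468 of 14938. ATP2B2 and CACNA1E had an unadjusted p-value below 0.05, again beside 3.59%, and the one member with a positive r was PLCH2, a phospholipase, at 0.07. Between diets, 4 of the 10 were called higher in HI and 1 lower, again beside 0.837%. Of the 5 hormone genes (PRL, CSHL1, FSHB, FST and IGF1), 0 were called with CALCB and the median r was -0.09, and between diets 2 were called lower and 1 higher in HI, beside 0.837% of all tested genes. The lists were drawn from genes the study selected on these calves, so their differences between diets are no independent evidence of direction. Nothing is read from their shares beside those of all genes, nor from how many members had the same sign of r. Without the 2 calves that stood apart, the median r was -0.03 for inducible genes and 0.02 for receptors, both of the other sign, and -0.13, -0.10 and -0.09 for the neuronal, calcium and hormone lists.

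**Figure D5:**
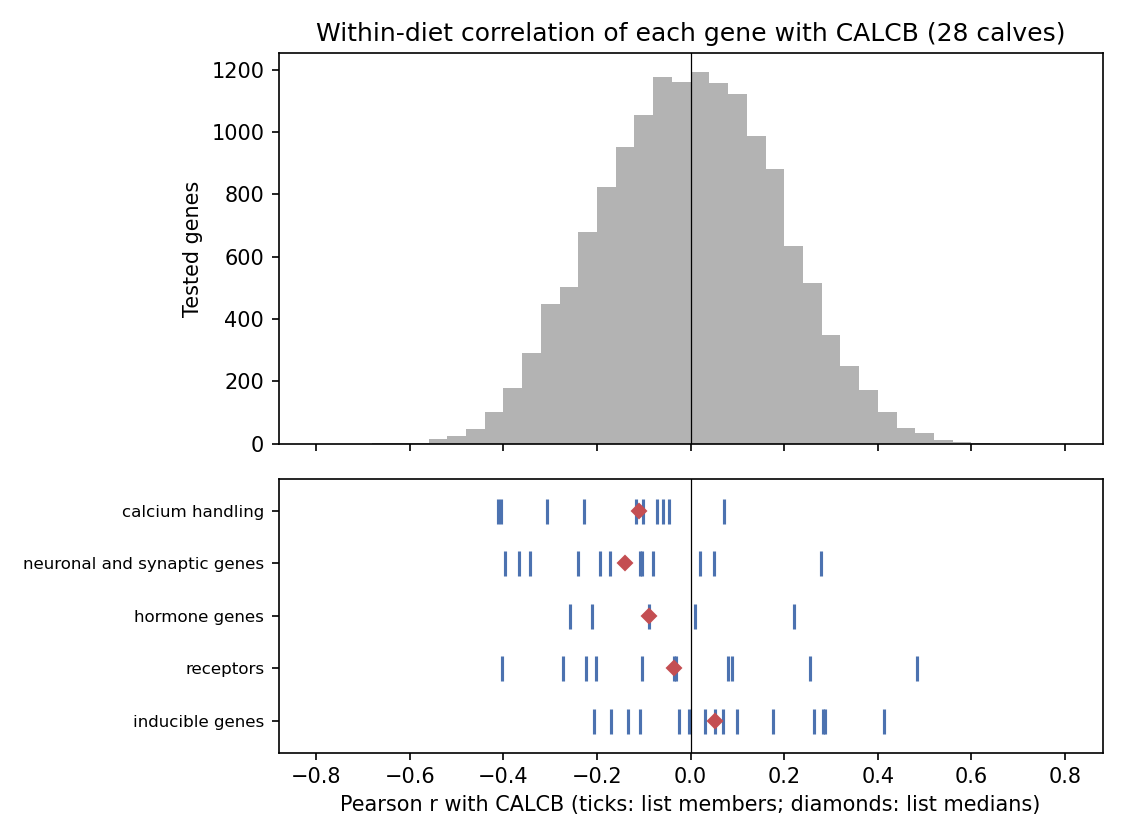
Number of tested genes by their within-diet Pearson r with CALCB over 28 calves (top), and the r of each member of 5 gene lists as ticks with the list medians as diamonds (bottom). The members lie within the spread of all genes, with list medians from -0.14 to 0.05.

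Marker genes of the cell types a pituitary sample could hold were read beside CALCB. Of 12 markers of anterior pituitary hormone cells, 5 had an identifier, with within-diet r from -0.21 for FSHB to 0.22 for CSHL1. Between diets, FSHB and CSHL1 were called lower and PRL and DRD2 higher in HI calves, beside 0.837% of all tested genes in either direction. GHRHR (log2 difference -0.57) was not called. A marker had an identifier only if the study selected it for a difference between these diets. Nothing is therefore read from how many markers of any cell type were called between diets. NKX2-2, the one of 5 posterior pituitary markers with an identifier, had an r of -0.20 and was called lower in HI calves. None of the 6 sensory neuron markers had an identifier, so the part of nerve fibres in the CALCB level was not tested. For smooth muscle, r was 0.19 for LMOD1 and -0.02 for ACTA2, and their log2 differences between diets were -0.51 and -0.69, in the direction of CALCB but not called. For B cells it was 0.09 for CD79B. For the genes listed under cartilage and meninges it was 0.02 for SOST, -0.22 for MSLN and -0.24 for HAPLN1, and whether they mark those tissues here was not tested. None of these 12 markers was called with CALCB. Among anterior pituitary markers, r ran from -0.18 for PRL to 0.16 for CSHL1 without the 2 calves that stood apart, with FSHB at -0.09. It was then -0.13 for NKX2-2, 0.03 for CD79B, between 0.094 and 0.098 for LMOD1 and ACTA2, so that ACTA2 changed sign, and between -0.28 and 0.11 for the cartilage and meninges markers. Between diets, CD79B (log2 difference -0.65) was called lower in HI calves. Of the genes listed under cartilage and meninges, SOST (-1.36) was called lower, while HAPLN1 (0.63) and MSLN (0.69) were higher without being called. The part of these cells in the CALCB difference was not tested.

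CALCB was also set beside technical measures in each diet, 6 relations in all. Its Pearson r with the reads of the library was 0.30 in MOD and 0.22 in HI calves, with the TMM factor -0.37 and 0.17, and with the first principal component 0.30 and -0.23. None passed the permutation test, and the smallest adjusted p-value was 0.569.

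The absence of called genes was compared with the same fit on other genes. Each of the 158 other genes with a symbol took the place of CALCB in turn, with all else as before. At least 1 gene was called for 98 of them and none for 60, with a median of 4.5 genes called. CALCB, with 0 called and 537 at an unadjusted p-value below 0.05, had more of the latter than 10 of the 158, whose median was 1576. CSHL1 had the most called genes, 4796, DRD2 had 313 and CREM 289. Calves MOD 2551 and HI 2535, which stood apart, were kept in these fits. Calf MOD 2551 had the highest CSHL1 level of MOD calves, 274951 CPM (median 131518). Calf HI 2535 had 131040 CPM, where HI calves had a median of 79069 and a highest level of 150873 CPM. How far the counts of called genes rest on these calves was not tested. Of the 5 genes whose within-diet SD exceeded that of CALCB, SOST had 103 genes called, FOSB 45, CASR 18, EGR1 7 and SERPINI2 0. These 158 genes were selected by the study for a difference between diets, so they are not a sample of all genes.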

How the data were processed

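Diet and calf came from the sample labels, and the 28 calves were treated as separate animals. The paper gives 14 calves per diet where the labels give 13 HI and 15 MOD. Blocks and sequencing batches are not given per calf in the sources used here. Adapters were trimmed by the authors with cutadapt, and STAR was used both to align the reads (genome build ARS-UCD1.2) and to count them per gene. The deposited values are a normalized signal, CPM on TMM-adjusted library sizes, and whole reads were recovered from it (100% of positive values whole within 0.01 of a read). A read was worth 0.0482 to 0.0830 CPM, and 3 reads 0.145 to 0.249 CPM.

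Because the values are not raw counts, limma 3.58.1 in R 4.3.3 was the main test, on log2(CPM + 0.5) with a trended, robust fit and Benjamini-Hochberg adjustment, after filterByExpr of edgeR 4.0.16. Models for co-variation held diet and the diet-centred CALCB level, or CALCB within 1 diet, or its interaction with diet. The models were tested on simulated data. Alternatives, on the recovered reads where they need counts, were edgeR, DESeq2 1.42.0, other pseudocounts (0.25 and 1), filters (no filter, or more than 1 CPM in at least 13 calves), scalings, the rank of CALCB, a principal component as covariate and each calf left out. Figures were drawn with matplotlib.

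CALCB, the gene lists and the markers were chosen with earlier results of these data known. Genes named are the 10 highest and 10 lowest within-diet correlations among genes with a symbol, the 2 highest and 2 lowest without one, the 5 highest and lowest within each diet, the 6 chosen partners (PRL, CSHL1, FSHB, DRD2, EGR1 and CREM), and members of the lists. The comparison with 158 other predictors, and the values without the 2 calves that stood apart, were added after seeing the data. Symbols come from the study's list of differentially expressed genes, which pairs 159 of them with identifiers. No sequence is shown.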

Additional observations from a re-analysis of the deposited data

How the results depend on the processing

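The count of genes called with CALCB was 0 under every alternative run, pooled, within each diet and for the difference between diets. The pooled count at an unadjusted p-value below 0.05 went from 278 with plain library totals to 869 with the first principal component as covariate. With each calf left out it was 427 to 731 pooled, 525 to 1188 in MOD, 250 to 1309 in HI and 311 to 2086 for the difference. All 780 alternative slopes of the 20 named genes kept their direction, and none was called. These genes were chosen as the extreme correlations in the same calves, so a kept direction is no independent evidence of a relation. The CALCB difference between diets stayed negative in all alternatives, from -2.84 with DESeq2 and -2.82 with edgeR to -1.88 with a pseudocount of 1, and from -2.34 to -2.08 with each calf left out. Of the relations with chosen genes, none was called under any alternative, and some changed sign. In HI calves these were PRL at 0.012 and DRD2 at 0.10 without the 2 calves farthest from the median CALCB level, CSHL1 at 0.015 with a pseudocount of 1, and CREM with a Spearman rho of -0.027. Without the 2 calves that stood apart they were CSHL1 at 0.14 and CREM at -0.031 in HI, and FSHB at 0.090 and DRD2 at -0.033 in MOD. The relation with CSHL1 in HI kept its sign but moved from -0.011 to -0.42 without the 2 calves farthest from the median. The cause was not tested. Counting error is largest in HI calves, of which 4 had under 10 reads of CALCB, at library sizes like those of MOD calves. Each calf received 1 diet. The paper states that calves were blocked and then assigned to diets within block. No analysis by block was possible, because the block of each calf is not given in the sources used here.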
